A study of Danio rerio with 6 samples.

Results

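The transcripts described here encode 4 enzymes that make or break down monoamines and 1 receptor that responds to noradrenaline, in the telencephalon of the zebrafish. They are th, ddc, dbh, mao and adra2a. The members were chosen by gene symbol: every probe set, the group of short probes that reports 1 transcript on the array, to which the platform annotation gives 1 of these symbols alone, leaving out the array maker's AFFX control probe sets. This gave 10 probe sets for the 5 genes, out of 15502 probe sets and 8793 named genes in all. There were 4 probe sets for mao, 2 each for th and ddc, and 1 each for dbh and adra2a.

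Sexually mature male fish had been exposed to fadrozole at 200 µg/L for 10 days, or served as controls. Fadrozole is a non-steroidal inhibitor of aromatase, the enzyme that converts androgens to estrogens. The labels name no strain, no age beyond sexual maturity and no vehicle for the controls. Each group had 3 one-colour arrays, and each array held biotin-labelled RNA from about 30 pooled telencephalons. The spread between arrays is therefore not a spread between single fish, and the labels do not say whether the pools of a group were independent.

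Dopamine and noradrenaline are made in a chain of steps from tyrosine. Tyrosine hydroxylase (th) makes L-DOPA and is the rate-limiting step, aromatic L-amino acid decarboxylase (ddc) turns L-DOPA into dopamine and also makes serotonin from 5-hydroxytryptophan, and dopamine beta-hydroxylase (dbh) turns dopamine into noradrenaline. Monoamine oxidase (mao), of which the zebrafish has a single gene, breaks all of these transmitters down. The alpha-2A adrenoceptor (adra2a) couples to inhibitory G proteins and, in mammals, dampens noradrenaline release from nerve endings. In the fish telencephalon, th-positive cell bodies lie in the olfactory bulb and the subpallium, while the cell bodies of noradrenaline neurons lie in the hindbrain.

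The deposited values are ratios of each probe set to the median of its 3 control arrays, so a control array at 1 is the middle control of that probe set. Levels below are log2 of that ratio with each array's overall shift removed, and differences are fadrozole minus control on this log2 scale, with ± giving the standard error of limma (lmFit and eBayes) unless SD is written. How bright a probe set was is lost in the ratio, so the genes cannot be ranked by level, it cannot be seen whether a marker of the tissue was absent, and some large ratios may come from dim signals. In pooled tissue, fewer cells of a type and less RNA per cell cannot be told apart.

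No member passed limma's adjusted test (adjusted p from 0.968 to 0.999). Of the 10 probe sets, 5 had a higher and 5 a lower mean on the fadrozole arrays, with a median difference of -0.11, against a median of -0.002 over all probe sets. At an unadjusted p under 0.05 there were 2 of the 10, a ddc probe set with a lower mean and a mao probe set with a higher one, where 4.23% of all probe sets reached that level. The arrays of the groups did not overlap for 2 of the 10, the same ddc probe set and adra2a, against 7.83% of all probe sets. Over all 15502 probe sets, limma called 0 at an adjusted p of 0.05. An unadjusted p under 0.05 was reached by 655, fewer than the 775 expected by chance alone. Brain aromatase, cyp19a1b, differed by -1.11 ± 0.31 as the mean of its probe sets on the same arrays, and did not pass the adjusted test either (adjusted p 0.945 over all genes in limma). Its 3 probe sets differed by -2.01 ± 0.28, -1.13 ± 0.44 and -0.18 ± 0.41, the first with an unadjusted p of 0.000388 in limma (adjusted p 0.768).

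**Figure D1:**
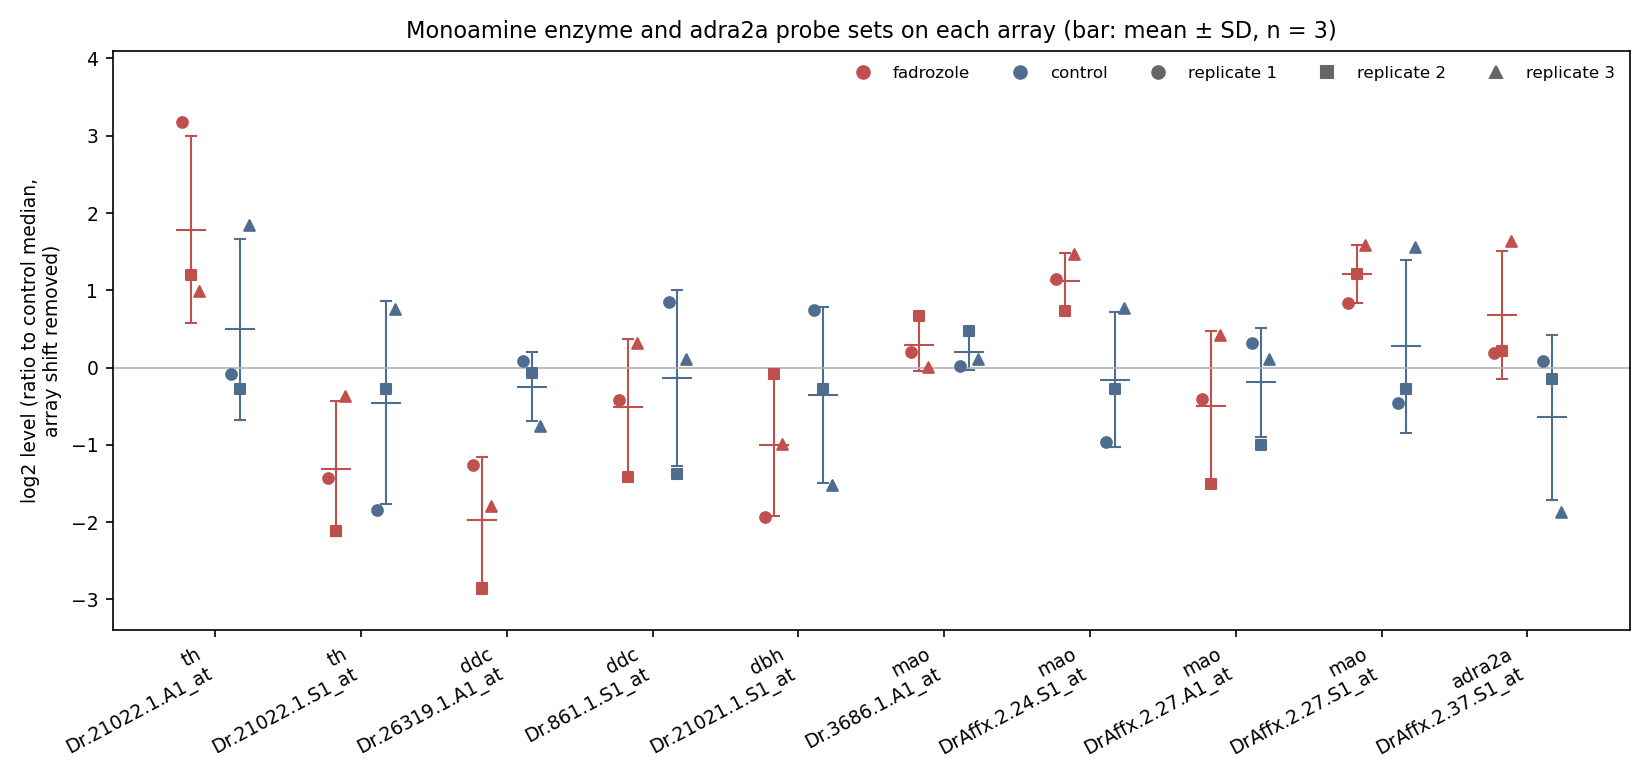
The log2 level of each member probe set on each array (y axis, log2 of the ratio to the control median with the array shift removed), with fadrozole arrays in red on the left and control arrays in blue on the right, marker shape giving the replicate number, and bars giving mean and SD over 3 arrays. The first ddc probe set lies lower and adra2a lies higher on all 3 fadrozole arrays, while the groups overlap for the other 8 probe sets.

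For th, the probe sets disagreed. Dr.21022.1.A1_at had deposited ratios of 8.76, 2.59 and 1.90 on fadrozole replicates 1, 2 and 3, against 0.888, 1.00 and 3.33 on control replicates 1, 2 and 3. Fadrozole replicate 1 stood highest, and control replicate 3 lay among the fadrozole arrays. The difference was 1.29 ± 0.83, with a 95% interval from -0.74 to 3.32. Dr.21022.1.S1_at had ratios of 0.361, 0.261 and 0.737 on fadrozole replicates 1, 2 and 3, against 0.263, 1.00 and 1.57 on control replicates 1, 2 and 3. Here 2 fadrozole arrays were near the lowest control array, and the groups again overlapped. This difference was -0.85 ± 0.78, with an interval from -2.77 to 1.06. Over the 6 arrays the log2 levels of the pair had a Pearson r of 0.03, given as a description of arrays that share their RNA and scaling. Their mean, the value for the gene, differed by 0.22 ± 0.67, and the interval from -1.42 to 1.86 allows a change of more than 2-fold either way. Both names carry the same source cluster, 21022.1. In the array maker's naming the letters A and S mark opposite orientations of the source sequence, and which strand each probe set detects was not checked.

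Transcripts of the olfactory list averaged higher on every fadrozole array than on any control array. Other lists of tissue and cell markers were looked at beside the pathway lists, and the olfactory average was the only one without overlap. Such a separation is not rare with 3 against 3 arrays. All 5 olfactory probe sets had a higher mean on the fadrozole arrays, where 49.9% of all probe sets had one. The groups did not overlap for 1 of the 5, against 7.83% of all probe sets, and none of the 5 had an unadjusted p under 0.05 in limma. As log2 levels, the average over the list ran from 0.60 to 1.00 on the fadrozole arrays and from -0.51 to 0.44 on the control arrays. The list of telencephalic genes averaged -0.08 to 0.11 on the fadrozole arrays and -0.09 to 0.18 on the control arrays, over 13 probe sets. The olfactory list was drawn from omp, ompa, ompb, calb2a, calb2b, ebf2, trpc2b, s100z and gng8, of which 5 genes were measured. It is a list of olfactory markers and not of genes of th cells. The part of the olfactory transcripts in the values of th was not tested.

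For ddc, Dr.26319.1.A1_at gave the smallest p of all members. Its ratios were 0.407, 0.156 and 0.276 on fadrozole replicates 1, 2 and 3, against 1.00, 1.15 and 0.550 on control replicates 1, 2 and 3. Every fadrozole array was lower than every control array, and fadrozole replicate 2 was the lowest. The level was -1.97 ± 0.82 (SD, n = 3) on the fadrozole arrays and -0.25 ± 0.44 (SD, n = 3) on the control arrays. The difference of -1.72 ± 0.50 is a 3.29-fold lower mean on the fadrozole arrays, with an unadjusted p of 0.0137 in limma (adjusted p 0.968). With each of the 6 arrays left out in turn the unadjusted p stayed between 0.00874 and 0.0462, and with a variance trend in limma it was 0.0525. A two-sided exact permutation test of the arrays gave p = 0.1, the minimum for 3 against 3. Of all probe sets, 3.53% had a difference at least as large in size.

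The other ddc probe set, Dr.861.1.S1_at, gave a smaller difference of -0.37 ± 0.72. Its ratios were 0.726, 0.423 and 1.195 on fadrozole replicates 1, 2 and 3, against 1.71, 0.466 and 1.00 on control replicates 1, 2 and 3. Replicate 2 was the lowest array of each group, and the groups overlapped. The r between the pair was 0.38 over 6 arrays. As their mean, ddc differed by -1.04 ± 0.51, with an unadjusted p of 0.0887 in limma. The groups did not overlap in this mean, as for 7.82% of all genes. The interval from -2.30 to 0.21 includes 0, so the call at the unadjusted level rests on Dr.26319.1.A1_at. Which strand this A1 probe set detects was not checked, as for the other member probe sets.

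The dbh probe set, Dr.21021.1.S1_at, varied within both groups by more than its means differed. Its ratios were 0.254, 1.07 and 0.482 on fadrozole replicates 1, 2 and 3, against 1.59, 1.00 and 0.323 on control replicates 1, 2 and 3. The lowest array was fadrozole replicate 1 and the highest was control replicate 1, with control replicate 3 among the fadrozole arrays. The difference was -0.65 ± 0.73 (95% interval -2.44 to 1.14). Leaving out control replicate 1 brought it to -0.10, and leaving out control replicate 3 to -1.24.

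The cell bodies of noradrenaline neurons lie in the hindbrain. The list of hindbrain and midbrain genes had a lower mean on the fadrozole arrays for 15 of 22 probe sets, where 50.1% of all probe sets had one. Under the other scalings of the arrays the count was 16 or 17 of the 22, and the share over all probe sets was not worked out. Leaving the array shifts in, or plain median centring, lowers every difference by a constant. The median over all probe sets was then -0.007 or -0.044. The average over the list ran from -1.17 to -0.16 on the fadrozole arrays and from -0.67 to 0.60 on the control arrays, with overlap. Replicate 2 was the lowest array of each group. The 22 probe sets cover 15 genes. An unadjusted p under 0.05 in limma was reached by 2 of the 22, both with a lower mean, against 4.23% of all probe sets. The groups did not overlap for 1 of the 22, against 7.83% of all probe sets. None passed the adjusted test (smallest adjusted p 0.768 in limma). The part of these genes in the dbh values was not tested.

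The 4 mao probe sets did not behave alike. DrAffx.2.24.S1_at had ratios of 2.15, 1.88 and 2.64 on fadrozole replicates 1, 2 and 3, against 0.483, 1.00 and 1.58 on control replicates 1, 2 and 3. The deposited ratios of the groups did not overlap, but with the array shifts removed fadrozole replicate 2, at a log2 level of 0.73, lay just under control replicate 3, at 0.77. The difference was 1.27 ± 0.51, a 2.42-fold higher mean on the fadrozole arrays, with an unadjusted p of 0.0457 in limma (adjusted p 0.999). Of the 6 fits with an array left out, 1 kept an unadjusted p under 0.05, the one without control replicate 3 (1.74). With quantile normalisation the unadjusted p was 0.108. DrAffx.2.27.S1_at had ratios of 1.74, 2.61 and 2.88 on fadrozole replicates 1, 2 and 3, against 0.686, 1.00 and 2.74 on control replicates 1, 2 and 3. Control replicate 3 lay among the fadrozole arrays, and the difference was 0.94 ± 0.61. Over the 6 arrays these S1 probe sets had an r of 0.90 with each other. The platform annotation gives both the same source sequence, so they are not independent measures of mao. DrAffx.2.27.A1_at has that source too, and its r was 0.03 with DrAffx.2.24.S1_at and 0.10 with DrAffx.2.27.S1_at.

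The A1 probe sets of mao differed less between the groups. Dr.3686.1.A1_at had ratios from 0.964 to 1.80 on the fadrozole arrays and from 0.961 to 1.68 on the control arrays, with a difference of 0.09 ± 0.31. DrAffx.2.27.A1_at had ratios from 0.397 to 1.28 on the fadrozole arrays and from 0.607 to 1.17 on the control arrays, with a difference of -0.30 ± 0.61. Across the arrays these ran against each other, with an r of -0.99. In each group replicate 2 was the highest array for Dr.3686.1.A1_at and the lowest for DrAffx.2.27.A1_at. The mean of the 4 probe sets differed by 0.50 ± 0.36, with an interval from -0.37 to 1.37.

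Disagreement between probe sets of a gene was common on these arrays. Over the 1539 genes with more than 1 probe set, the median r between the first pair was 0.09, and 22.2% of the genes had an r above 0.5. The probe set pairs of th and ddc and the first pair of mao, Dr.3686.1.A1_at with DrAffx.2.24.S1_at at an r of -0.04, lie outside that share. The S1 pair of mao has the highest r of the 6 pairs of mao probe sets, and the other 5 run from -0.99 to 0.10.

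The receptor adra2a was measured by DrAffx.2.37.S1_at alone. Its ratios were 1.11, 1.31 and 2.98 on fadrozole replicates 1, 2 and 3, against 1.00, 1.096 and 0.254 on control replicates 1, 2 and 3. All fadrozole arrays lay above all control arrays, but 4 of the 6 arrays were close together, and fadrozole replicate 3 and control replicate 3 set most of the distance. The level was 0.68 ± 0.83 (SD, n = 3) on the fadrozole arrays and -0.64 ± 1.07 (SD, n = 3) on the control arrays. The difference was 1.33 ± 0.68, with an unadjusted p of 0.0997 in limma and an exact permutation p of 0.1. Without control replicate 3 it was 0.71 ± 0.56, and without fadrozole replicate 3 it was 0.85 ± 0.68.

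**Figure D2:**
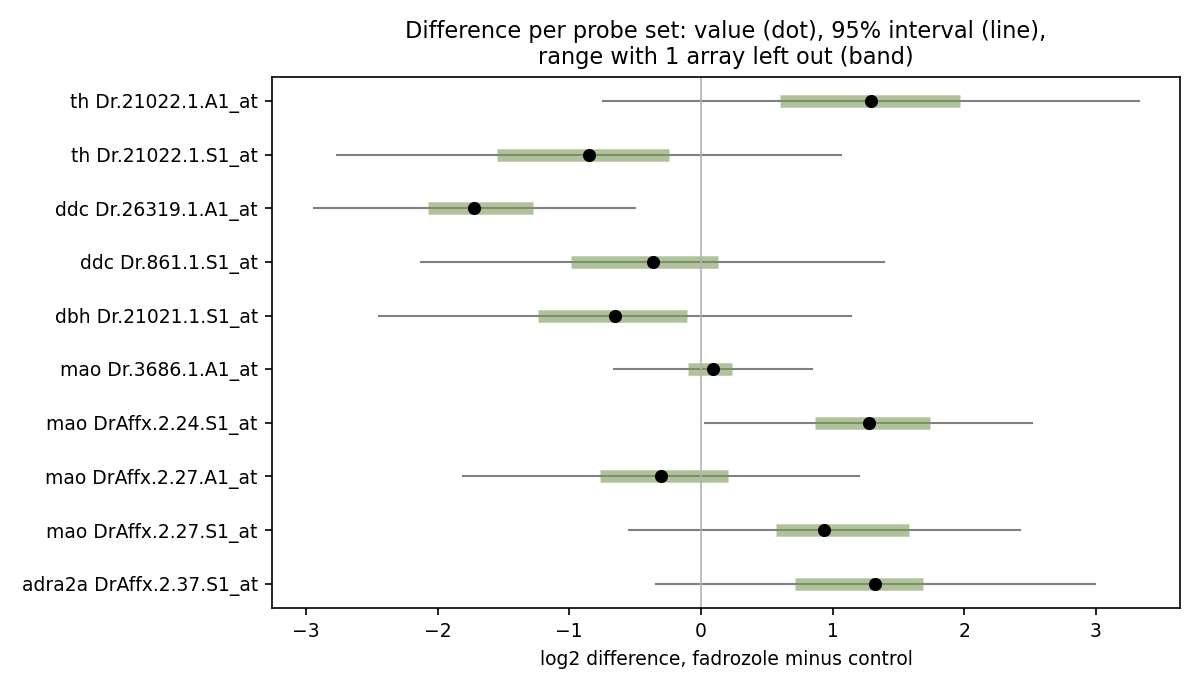
The log2 difference, fadrozole minus control, of each member probe set (x axis), as a dot with its 95% interval from limma as a line and the range of values with 1 array left out as a band. The interval leaves out 0 for Dr.26319.1.A1_at of ddc and DrAffx.2.24.S1_at of mao, and the band crosses 0 for Dr.861.1.S1_at of ddc and for both A1 probe sets of mao.

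The slide numbers in the labels fall into 2 runs, one with replicates 1 and 3 of both groups and one with replicate 2 of both groups. For 9 of the 10 probe sets the difference had the same sign within each run, and for 31 of the 56 probe sets of the pathway lists described below. The share over all probe sets was not worked out, and the 10 are not independent, as some share a source sequence. The exception was dbh, at -1.07 in the larger run and 0.19 in the smaller one. The 9 include small values, 0.04 in the larger run for Dr.3686.1.A1_at of mao and -0.04 in the smaller run for Dr.861.1.S1_at of ddc. For Dr.26319.1.A1_at of ddc the values were -1.19 and -2.78. For DrAffx.2.24.S1_at of mao they were 1.41 and 1.01, and for adra2a 1.81 and 0.36. The smaller run holds 1 array of each group and so gives no error. In limma fitted on the larger run alone, the ddc probe set had an unadjusted p of 0.0725 and the mao probe set one of 0.128.

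Setting members against each other on the same array removes a constant shift of that array, but not a scaling that moves probe sets by unequal amounts. The log2 difference of ddc minus adra2a, both as gene means, was -1.03, -2.35 and -2.38 on fadrozole replicates 1, 2 and 3, against 0.38, -0.58 and 1.55 on control replicates 1, 2 and 3. The groups did not overlap, and ddc minus adra2a was lower on the fadrozole arrays by a difference of -2.37 ± 0.76 (standard error from the group SDs). The gene means of ddc and adra2a each lay apart between the groups already, in opposite directions. This pair therefore had to separate, and its permutation p could only be the minimum. The groups also did not overlap for ddc minus mao, with a difference of -1.54 ± 0.61, and for dbh minus adra2a, with -1.98 ± 0.75. Each of these 3 pairs had a two-sided exact permutation p of 0.1, which is 0.333 after adjustment over the 10 pairs of genes. Groups that do not overlap always give 0.1, the minimum for 3 against 3, so no pair could reach an adjusted p under 0.05. All 3 hold ddc or adra2a, so they are not separate observations. The share of all gene pairs without overlap was not worked out, and for single genes it was 7.82%. The other 7 pairs overlapped. Among them th minus ddc was at 1.71, 1.68 and 1.04 on the fadrozole arrays, and ran from -1.43 to 1.62 on the control arrays.

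**Figure D3:**
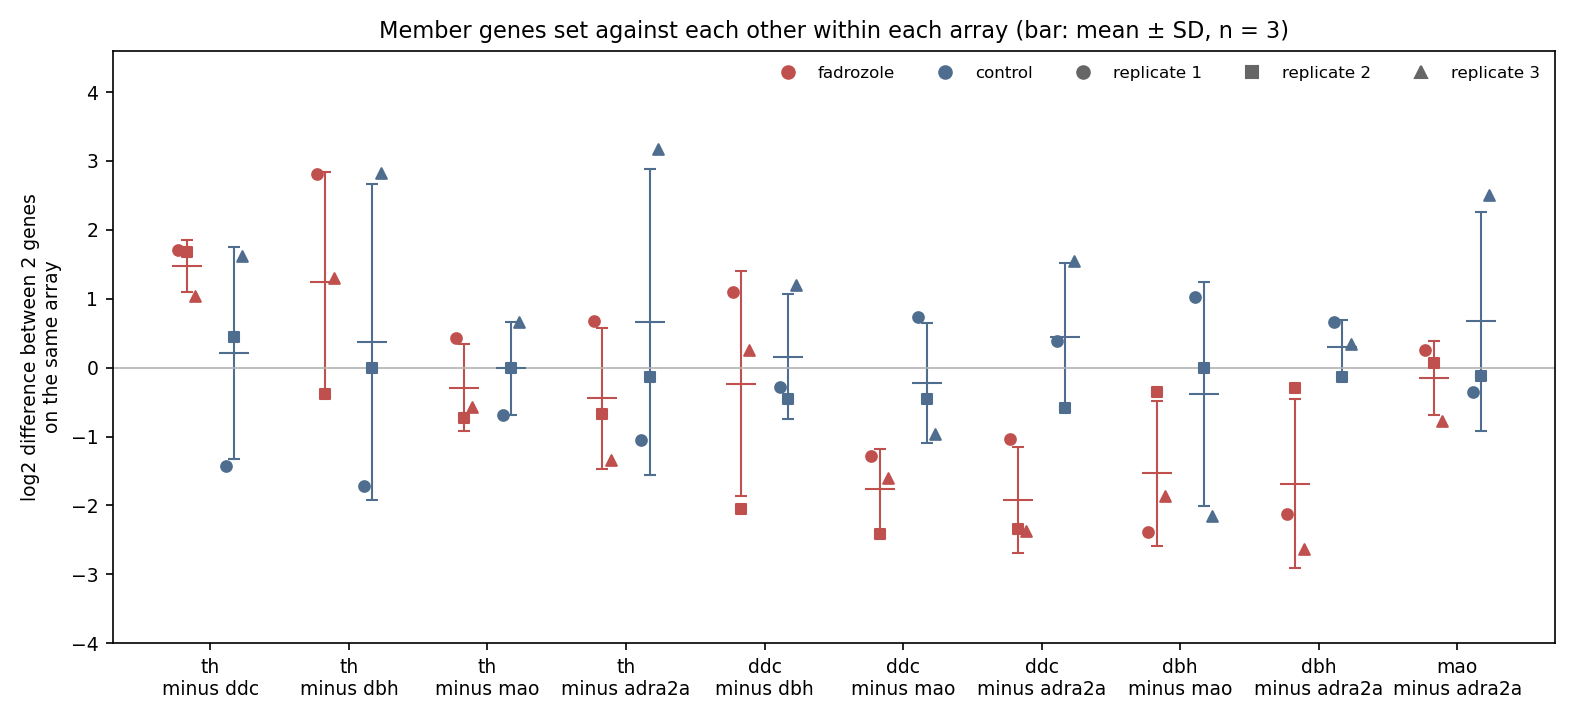
The log2 difference between 2 member genes on the same array (y axis) for the 10 pairs (x axis), with fadrozole arrays in red on the left and control arrays in blue on the right, marker shape giving the replicate number, and bars giving mean and SD over 3 arrays. The groups lie apart for ddc minus mao, ddc minus adra2a and dbh minus adra2a. Each of these pairs holds ddc or adra2a, whose gene means already lay apart between the groups.

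Across the 6 arrays the gene levels of th and dbh had a Pearson r of -0.95, the furthest from 0 of the 10 pairs of genes. The th level is the mean of 2 probe sets that had an r of 0.03 and differed in opposite directions, and dbh has 1 probe set. Control replicate 1 was the lowest array for th and the highest for dbh. The r of th with ddc was -0.02, and that of ddc with dbh was 0.16. With mao, the r was 0.73 for th and -0.73 for dbh. These values describe arrays of 2 groups that share RNA and scaling within each array.

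The named genes whose levels over the 6 arrays were most like those of ddc were ihhb, a hedgehog ligand, with an r of 0.99, and atp5if1a and gamt, each with 0.98. For th they were pimr197, si:dkeyp-110g5.4 and nop2, each with an r of 0.98. For dbh they were gja8b and nsun3, each with 0.98, and zcchc10 with 0.97, and for mao they were tmem117 with 0.99, grwd1 with 0.98 and bhmt with 0.98. For adra2a they were phpt1 with 0.99 and med8 and the glycine receptor subunit gene glrba with 0.98. Between 42 and 77 of the 8792 other genes had an r above 0.9 with a given member. How many unrelated genes would reach this over 6 arrays was not worked out, so the named genes are a description only. The th level used here is the mean of probe sets with an r of 0.03.

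The other genes of the monoamine pathway were split in direction. In 7 lists, 56 probe sets for 45 genes were measured, 26 with a higher and 30 with a lower mean on the fadrozole arrays and a median difference of -0.04. None passed limma's adjusted test, and 1 of the 56 had an unadjusted p under 0.05, where 4.23% of all probe sets reached that level. For 5 of the 56 the groups did not overlap, against 7.83% of all probe sets.

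Of the synthesis enzymes and their cofactor genes, 6 of 10 probe sets had a lower mean, with a median of -0.38, which was -0.87 without fadrozole replicate 1, 0.0089 without fadrozole replicate 3 and -0.064 without control replicate 1. The tetrahydrobiopterin cofactor of th and of the tryptophan hydroxylases is regenerated by the product of qdpra, whose probe sets differed by -1.56 ± 0.72 and -0.71 ± 0.92. The probe sets of gch2, a GTP cyclohydrolase that begins cofactor synthesis, differed by -0.85 ± 0.57 and 0.27 ± 0.98. Of the 7 probe sets for transport and breakdown, 4 had a higher mean, with a median of 0.07. The one with the smallest p in the pathway was moxd1, a monooxygenase gene related to dbh, at log2 levels of 0.82, 0.90 and 1.72 on fadrozole replicates 1, 2 and 3 against 0.08, 0.04 and -0.33 on control replicates 1, 2 and 3. All fadrozole arrays of moxd1 lay above all control arrays, with a difference of 1.22 ± 0.35 and an unadjusted p of 0.0135 in limma (adjusted p 0.968). The gene hnmt, whose enzyme methylates histamine, differed by 1.42 ± 0.78.

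All 5 probe sets of the other alpha-2 adrenoceptor genes had a lower mean on the fadrozole arrays, where 50.1% of all probe sets had one. Their differences lay between -0.58 and -0.01, with a median of -0.38, on the opposite side of 0 from adra2a. Their side was the same under each of the 4 scalings. Leaving the array shifts in, or plain median centring, lowers every difference by a constant, so these 5 could not change side there. The 5 probe sets cover the 4 genes of the adrenergic list that were measured, and no test was made of adra2a against them. Of these, adra2c differed by -0.32 ± 0.27, and the probe sets of adra2b by -0.58 ± 0.71 and -0.38 ± 0.47. The median of the 5 was 0.15 without fadrozole replicate 3, so its side depends on that array. The 4 dopamine receptor probe sets had a median of -0.33, with the D2-type receptor genes drd3 at 0.75 ± 0.53 and drd2a at -0.48 ± 0.88, and the median was 0.33 without fadrozole replicate 3 and 0.23 without fadrozole replicate 1. The only serotonin receptor of the list, htr5ab, differed by -0.80 ± 0.54.

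Genes that act downstream of such receptors had a higher mean for 8 of 10 probe sets, with a median of 0.15. The probe sets of rgs4, a brake on G protein signalling, differed by 1.89 ± 0.95 and 0.12 ± 0.40. For the first of these the groups overlapped. Its control replicate 1 was at a log2 level of -2.94, against 0.39 and 0.11 on control replicates 2 and 3. The probe sets of arrb2a, an arrestin gene, differed by 0.46 ± 0.32 and -0.32 ± 0.42. Of 19 probe sets for transcription factors of monoamine neurons, 9 had a higher and 10 a lower mean, with a median of -0.03, and the split was 8 to 11 under plain median centring and under quantile normalisation. Differences in this list ran from -1.46 to 1.18. The genes named here, foxa2 and pax6a, had its smallest p in limma, and both had a higher mean. The gene foxa2, which acts in midbrain dopamine neurons of mammals, differed by 1.099 ± 0.53. The gene pax6a, which is needed for olfactory bulb dopamine cells in mice, differed by 0.65 ± 0.33.

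**Figure D4:**
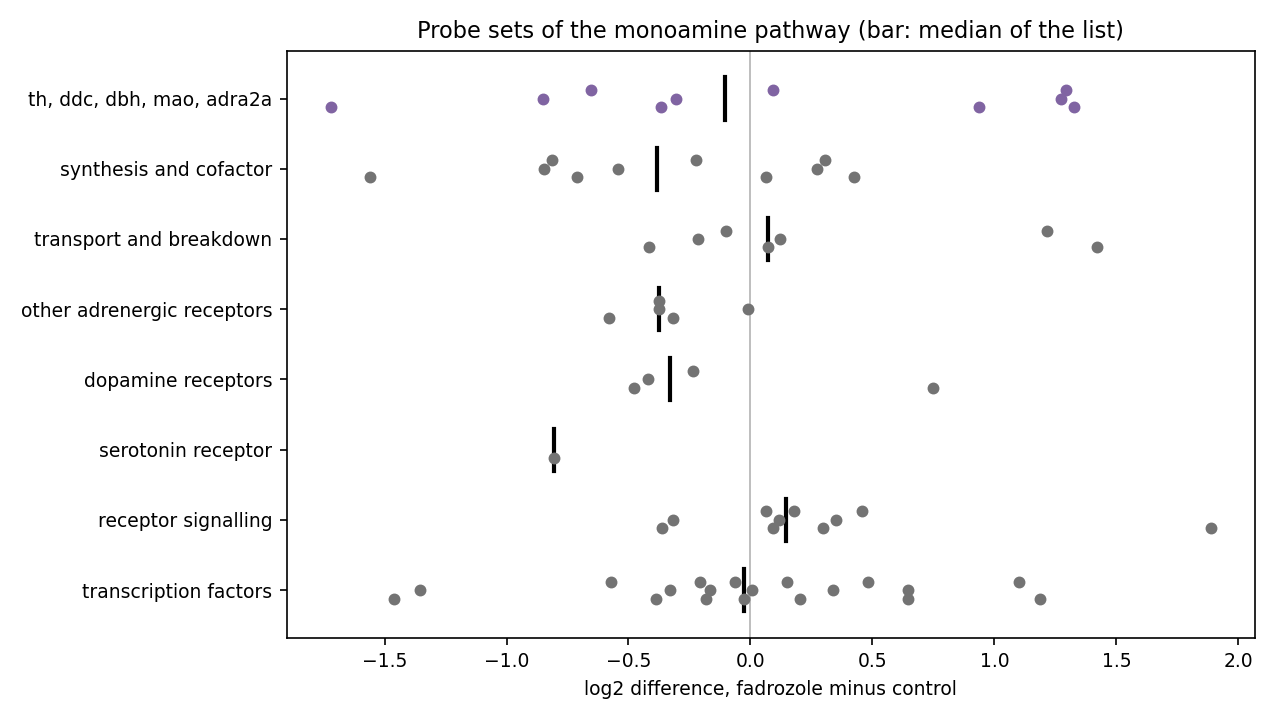
The log2 difference, fadrozole minus control (x axis), of each probe set of the 5 genes and of the 7 pathway lists (rows), with the median of each row as a bar. The adra2a probe set lies at 1.33, while all 5 probe sets of the other adrenergic receptors lie below 0.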

How the data were processed

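RNA from pooled telencephalons was hybridised to 1-colour arrays, 3 per group. The authors deposited ratios on a linear scale, and the middle control array of each probe set is at 1, in all 15617 rows, which shows a division by the control median. For scanner software, scaling and probe summary nothing is given in the sources used here. Ratios ran from 0.0177 to 106.7. Without signal levels, dim probe sets could not be filtered out.

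The ratios were put on the log2 scale, the median of (value minus row mean) was subtracted from each array, and the 115 AFFX probe sets were left out. All 15502 others were fitted in limma 3.58.1 (R 4.3.3; lmFit, eBayes, two-sided, Benjamini-Hochberg adjustment), a step tested on simulated data. Single values were also tested by exact permutation. Gene values are means of a gene's probe sets. No list was tested.

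The members and lists were chosen with earlier results of these data known. Named genes were all members, in each list those with an unadjusted p under 0.05 or else the smallest p up to 2 genes, for each member the 3 genes of highest r, and cyp19a1b. The labels do not say whether the pools of a group were independent, so p-values reflect array-to-array spread, and the small number of arrays limits how precise any value is. Alternatives were other scalings, variance priors, weights, blocks, gene-level values and leaving out each array.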

Additional observations from a re-analysis of the deposited data

How the results depend on the processing

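No member passed the adjusted test under any of the 17 alternatives (smallest adjusted p 0.761 in limma), and 164 of the 170 values kept their sign. The variance trend, the robust variance prior and the blocks leave the difference itself unchanged. So does the gene level for dbh and adra2a, with 1 probe set each. Leaving the array shifts in, plain median centring and keeping the AFFX probe sets lower every difference by a constant smaller than any member's difference. None of these values could change sign, so the count of 164 overstates how far the signs were tested. Taken as the mean of the gene, the value turned to 0.22 for Dr.21022.1.S1_at of th and to 0.50 for DrAffx.2.27.A1_at of mao. With an array left out, the values that crossed 0 ran from -0.99 to 0.13 for Dr.861.1.S1_at of ddc, from -0.10 to 0.23 for Dr.3686.1.A1_at of mao and from -0.76 to 0.20 for DrAffx.2.27.A1_at of mao. Within arrays, leaving one out gave -0.17 to 2.099 for th minus dbh, -0.64 to 0.059 for th minus mao, -1.96 to 0.15 for th minus adra2a, -1.06 to 0.52 for ddc minus dbh (0.22 in the larger slide run alone) and -1.34 to 0.089 for mao minus adra2a. The 3 pairs whose groups did not overlap kept their sign. With an array left out, 5 of the 7 list medians crossed 0, running from -0.52 to 0.15 for the adrenergic receptors, from -0.51 to 0.33 for the dopamine receptors, from -0.87 to 0.0089 for synthesis and cofactors, from -0.23 to 0.35 for transport and breakdown and from -0.14 to 0.18 for the neuron factors. In the larger run alone the dopamine receptors were at -0.58 and the neuron factors at 0.24. Across all probe sets, 0 passed the adjusted threshold under each alternative, against 655 at 1.5-fold or more and an unadjusted p under 0.05. That count was 338 with quantile normalisation, 359 at gene level, where fewer features were tested, and 638 to 994 with an array left out. Other causes were not tested.

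The labels give no pairing of same-numbered arrays, and replicate 2 of both groups shares a run of slide numbers. The deviations of same-numbered arrays correlated with r of 0.06, 0.19 and 0.09 across probe sets, each array correlating best with its own number. With the replicate block, Dr.26319.1.A1_at of ddc was at -1.72 ± 0.46 (limma, unadjusted p 0.0230, adjusted p 0.866). The count at 1.5-fold or more and an unadjusted p under 0.05 was 842 with that block, against 655 in the main fit. Again 0 probe sets passed the adjusted threshold. Whether mao DrAffx.2.24.S1_at overlapped between groups was read from the deposited ratios after the data were seen, with a gap of 0.25 on the log2 scale there. What signal over background would limit cannot be judged from ratios.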
